A study of Mus musculus with 4 samples.

Results

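The genes of the MHC class II presentation pathway were examined as 10 members: the chains HLA-DRA, HLA-DRB1, HLA-DPA1, HLA-DPB1, HLA-DQA1 and HLA-DQB1, the peptide exchange factors HLA-DMA and HLA-DMB, the invariant chain CD74 and the transactivator CIITA. They were taken by gene symbol from the 36601 genes of the count tables, and each symbol matched 1 gene identifier, for example ENSG00000204287 for HLA-DRA and ENSG00000179583 for CIITA. The cells were human CD45+ leukocytes sorted from orthotopic MDA-MB-231 tumors, a human breast carcinoma line grown in the mammary fat pad of MISTRG mice. These mice express human IL-3, GM-CSF and M-CSF, cytokines of the myeloid lineage, lack lymphocytes of their own and keep mouse myeloid cells. All of them were irradiated as pups and engrafted with CD34+ cells of human fetal liver, so the human leukocytes developed in a mouse host. A group of 7 mice was left untreated and another 7 received the drug maraviroc in the drinking water. Each mouse carried a hashtag antibody, and the mice were pooled for droplet RNA-seq of the 3' ends in 2 reactions, with 4 untreated and 3 maraviroc mice in reaction 1 and 3 untreated and 4 maraviroc mice in reaction 2. The treatment of a mouse was read from the name of its hashtag in the deposited feature lists.

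Class II molecules are heterodimers of an alpha and a beta chain that show peptides from endosomes to CD4+ T cells. The invariant chain CD74 escorts new dimers to the endosome and is cut down by cathepsins, after which HLA-DM exchanges the remaining fragment for a peptide. CIITA is recruited to the shared promoter module of these genes by the RFX, CREB and NF-Y proteins and switches them on together. Dendritic cells, B cells and macrophages carry class II constitutively, interferon-gamma induces it in many other cells, and activated human T cells also express it.

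Of 42702 barcodes, 37806 had 601 to 6000 genes and under 12.5% mitochondrial counts, and 19817 of these were singlets by hashtag. Cells were gated on raw UMIs of marker genes that held none of the 10 members, which placed 11646 cells (58.8%) in 23 exclusive gates. Reaction 1 was the shallower library, with a median of 2764 UMIs per barcode against 10204.5 in reaction 2, and 48.5% of its singlets were gated against 74.3% in reaction 2. The 2 reactions shared 136 barcode sequences, which were kept as separate cells. For each mouse, the UMIs of all its cells within one gate were added up and scaled to 1000000 UMIs of that gate and mouse (CPM), and a gate was given a level in each mouse with at least 3 of its cells. The limits of the gates were set after the data had been seen. The fits below were scaled instead to the genes they tested, in the mice that could enter them. A log2 fold change therefore need not match the ratio of the median levels printed beside it. A UMI at the 3' end of a transcript does not allow levels of different genes to be compared, so each member was compared across gates. Where a ratio between members is given, that ratio was likewise compared across gates.

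Of the 10 members, 8 had their highest median level in dendritic cells gated by CLEC9A or XCR1 (cDC1), the dendritic cells known for cross-presentation. HLA-DMB and CIITA had theirs in dendritic cells gated by CD1C counts, with FCER1A and CLEC10A added to the sum (cDC2), known for presentation to CD4+ T cells. For CIITA the medians of plasmacytoid dendritic cells and of mature dendritic cells, gated by LAMP3 with CCR7, lay close to that of cDC2. HLA-DRA, the nearly invariant alpha chain of HLA-DR, had a median over mice of 8921 CPM (range 7046 to 11671, n = 11 mice) in cDC1 and of 7113 CPM (range 4168 to 7994, n = 14 mice) in cDC2. It followed at 5161 (2148 to 7902) CPM in CXCL10-high macrophages and at 4078 (3134 to 7177) in C1Q macrophages without state markers, at 3424 (2679 to 4622) in monocytes and at 2618 (2128 to 4430.0) in B cells. Plasmacytoid dendritic cells had 2196 (1218 to 4049.8) CPM. The other myeloid gates lay between C1Q macrophages and plasmacytoid cells, and all neighbours in this order overlapped between mice. Below them came a gap: NK cells had 540.4 (140.0 to 1064) CPM, CD8 T cells 374 (127 to 570.1) and regulatory T cells 198 (128 to 272), and no mouse of these 3 gates reached the lowest mouse of the plasmacytoid cells. Mast cells, with 162 (0 to 2176) CPM, overlapped all of them, and in carcinoma cells, the few cells with cytokeratin and without PTPRC counts, the level was 66.0 (12 to 91.2) in 5 mice.

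**Figure D1:**
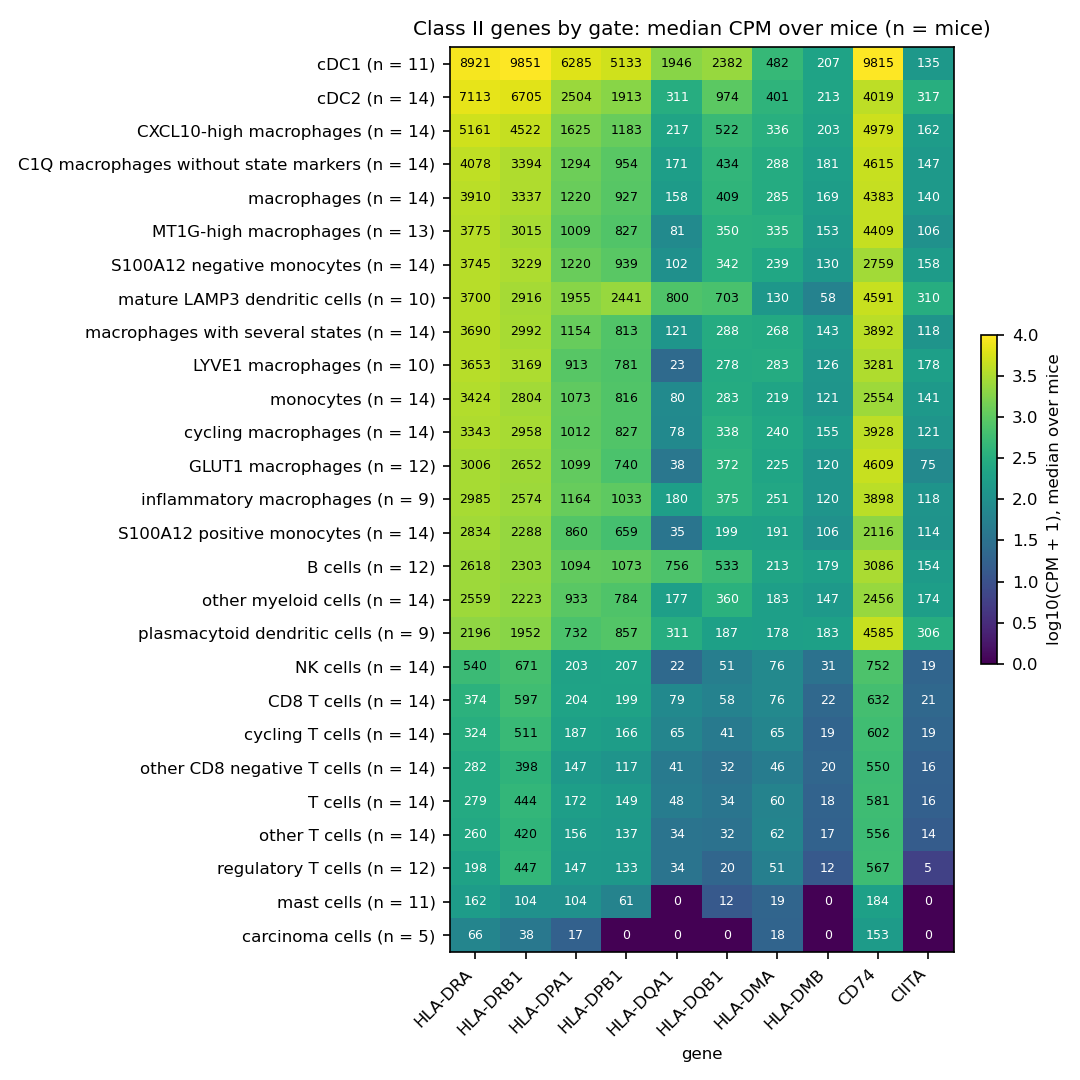
Median CPM over mice (numbers in the cells, colour on a log10 scale) of the 10 class II genes in each gate with at least 4 mice, ordered by HLA-DRA, with the number of mice beside each gate. HLA-DRA falls from 8921 CPM in cDC1 to 66.0 in carcinoma cells. The CIITA median is highest in cDC2 at 317, with those of mature LAMP3 and plasmacytoid dendritic cells close to it.

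Within the dendritic cells, cDC1 and cDC2 differed most in the HLA-DQ and HLA-DP chains and in CD74. HLA-DQA1, the alpha chain of HLA-DQ, was at 1946 CPM (range 1552 to 2957, n = 11 mice) in cDC1 and at 311 CPM (range 16.3 to 715, n = 14 mice) in cDC2, so that every cDC1 level was above every cDC2 level. CD74 was at 9815 CPM (range 8259 to 10802, n = 11 mice) in cDC1 and at 4019 CPM (range 2194 to 5100.5, n = 14 mice) in cDC2, and these ranges did not overlap either. HLA-DPB1, the beta chain of HLA-DP, was at 5133 (4025 to 7568) CPM in cDC1 and 1913 (1206 to 2387) in cDC2. In edgeR's quasi-likelihood test, paired within 11 mice, 8 of the 10 members were higher in cDC1 and none was lower, where 20.5% of the 2104 genes tested were higher. Over the members tested the median log2 fold change was 1.29, beside -0.11 over all genes tested. The log2 fold change was 3.11 ± 0.40 (SE, adjusted p = 1.17e-05) for HLA-DQA1, 1.94 ± 0.22 (SE, adjusted p = 2.60e-06) for HLA-DQB1, 1.82 ± 0.13 (SE, adjusted p = 3.26e-08) for HLA-DPB1 and 1.56 ± 0.13 (SE, adjusted p = 1.36e-07) for CD74, each higher in 11 of 11 mice. HLA-DRA, at 0.72 ± 0.11, and HLA-DRB1, at 1.01 ± 0.13, rose by less. HLA-DMA rose by 0.58 ± 0.16, whereas HLA-DMB did not pass (0.24 ± 0.23, adjusted p = 0.402). CIITA went the other way, with a median of 135 CPM in cDC1 and 317 in cDC2, and did not pass (-0.63 ± 0.25, adjusted p = 0.054) in edgeR, whereas DESeq2 called it lower (-0.77 ± 0.25, adjusted p = 0.00508). A single member was called lower also with stricter markers and with every gene counted. Only 69 cells were cDC1, so a mouse needed 3 cells instead of 10 to enter this test, a limit chosen after seeing the data.

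Of the other genes of the pathway that were called in this comparison, most were lower in cDC1. Of the 42 listed genes (other class II genes, promoter factors, proteases, turnover, interferon-gamma signalling, repressors, binding partners and costimulation), 23 were tested, 2 were higher and 8 lower in cDC1, beside 508 lower of the 2104 genes tested in all. LGMN, an asparagine endopeptidase of the endosome, rose by 1.45 ± 0.36 on the log2 scale, and MIF, a ligand of CD74, by 0.58 ± 0.17. CD44, which forms a receptor with CD74, had a log2 fold change of -2.27 ± 0.37, the costimulatory ligand CD86 of -1.52 ± 0.29 and the cathepsin CTSH of -1.49 ± 0.27. Beyond the 3 largest changes in each direction, here and in the other comparisons, pathway genes were named after their values were seen: CTSS, the cathepsin that trims the invariant chain, fell too, at -1.01 ± 0.18, and 4 of the 8 processing genes tested fell in all.

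All 10 members were higher in cDC2 than in monocytes of the same mice (10 mice; 8.66% of 7295 genes were higher). The members had a median log2 fold change of 1.10 and all genes tested one of 0.00. The cDC2 gate set no limit on monocyte markers, and the part of that was not tested. The largest log2 fold change was that of HLA-DQA1, at 2.17 ± 0.30 (SE, adjusted p = 3.88e-05), followed by HLA-DQB1 at 1.56 ± 0.15 (SE, adjusted p = 4.87e-07) and CIITA at 1.14 ± 0.10 (SE, adjusted p = 1.36e-07). HLA-DQA1 was higher in cDC2 in 2 of 4 mice of reaction 1, with a fitted 1.25 ± 0.53 that did not pass there, and in 6 of 6 mice of reaction 2, with 2.53 ± 0.23, and the difference between the reactions was not tested. In reaction 1 alone 7 members passed, beside 73 higher of 6702 genes, and in reaction 2 alone all 10, beside 379 of 8743. CIITA was at 317 CPM (range 88.0 to 497, n = 14 mice) in cDC2 and at 141 CPM (range 78.9 to 186, n = 14 mice) in monocytes and was higher in cDC2 in 10 of 10 mice. HLA-DRA rose by 0.93 ± 0.09 (SE, adjusted p = 1.91e-07) and CD74, the least, by 0.68 ± 0.10 (SE, adjusted p = 5.66e-05). Of the 32 other pathway genes tested, 8 were higher and 7 lower, beside 632 higher and 618 lower of the 7295 genes tested in all. The costimulatory genes CD80 (1.31 ± 0.13), CD40 (0.71 ± 0.12) and CD86 (0.61 ± 0.09) were all higher in cDC2, and so was HLA-DRB5 (1.24 ± 0.13), whose reads are near identical to those of HLA-DRB1 and may be split between them. The lysosomal proteases CTSL (-1.73 ± 0.13), CTSD (-1.56 ± 0.11) and LGMN (-0.90 ± 0.14) were lower.

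Mature dendritic cells, gated by LAMP3 with CCR7 counts, differed from cDC2 in both directions. They were higher than cDC2 in HLA-DQA1 (1.90 ± 0.31, adjusted p = 6.27e-05), HLA-DPB1 (0.89 ± 0.16, adjusted p = 1.25e-04) and CD74 (0.71 ± 0.12, adjusted p = 5.42e-05), and lower in HLA-DMB (-1.40 ± 0.24, adjusted p = 9.43e-05), HLA-DMA (-1.07 ± 0.27, adjusted p = 0.00263), HLA-DRB1 (-0.63 ± 0.15, adjusted p = 0.00216) and HLA-DRA (-0.36 ± 0.13, adjusted p = 0.03). That made 3 members higher, beside 29.6% of 2131 genes, and 4 lower, beside 30.3%, shares close to those of all genes, in 10 mice with at least 3 cells on each side. Over the members tested the median log2 fold change was 0.22, beside -0.05 over all genes tested. The CPM levels that follow were scaled to all UMIs, so their ratios differ from these fitted values. HLA-DMA had a median of 130.0 CPM (range 49.0 to 517, n = 10 mice) in mature cells and 401 (261 to 502) in cDC2, and HLA-DMB of 57.5 (27.9 to 149) and 213 (89.6 to 365); the fall of HLA-DMB was seen in 10 of 10 mice. HLA-DQA1 was at 800.0 CPM (range 508 to 2242, n = 10 mice), higher than cDC2 in 10 of 10 mice. CIITA had 310.2 (14.0 to 517) CPM and did not pass (0.48 ± 0.25, adjusted p = 0.107). Within mice it was higher in mature cells in 8 of 10, with 2 of 4 in reaction 1 and 6 of 6 in reaction 2. HLA-DPA1 (0.13 ± 0.15, adjusted p = 0.458) and HLA-DQB1 (0.30 ± 0.23, adjusted p = 0.264) did not pass either. In reaction 1 alone, with 4 mice, 4 of the 9 members tested passed, 3 higher and 1 lower, beside 281 higher and 281 lower of 1245 genes.

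The genes that control how long class II stays on the surface moved strongly in these mature cells. MARCH1, the ubiquitin ligase that sends class II and CD86 to the lysosome, had a log2 fold change of -4.88 ± 0.45 against cDC2, and CD83, which blocks that ligase, of 2.48 ± 0.17. All 3 costimulatory genes were higher, CD80 at 1.16 ± 0.22, CD40 at 1.14 ± 0.31 and CD86 at 0.85 ± 0.22. The protease SPPL2A, which clears the last fragment of the invariant chain, rose by 1.50 ± 0.18, while CTSB (-2.73 ± 0.30), CTSS (-1.92 ± 0.20) and CTSD (-1.85 ± 0.36) fell. In all, 8 of the 24 other pathway genes tested were higher and 7 lower.

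B cells had HLA-DRA below cDC2 and HLA-DQA1 above it. In the 5 mice with at least 10 B cells and 10 cDC2, HLA-DRA was at 4430.0, 2743, 2232, 2128 and 2569 CPM in B cells and, in the same order of mice, at 4168, 6204, 5929, 7503 and 6170.5 in cDC2. The B cell value was the lower in 4 of these mice and the higher in reaction 1 untreated mouse 1. HLA-DQA1 was at 857, 792, 655, 680.5 and 646 CPM in B cells and at 54.8, 305, 466, 387 and 306 in cDC2, higher in B cells in all 5. In edgeR's test HLA-DQA1 was the 1 member that rose (1.30 ± 0.32, adjusted p = 0.00302; 25.2% of 2753 genes rose), and 5 members fell (29.1% of genes fell): HLA-DRB1 (-1.09 ± 0.23, adjusted p = 0.00105), HLA-DRA (-1.08 ± 0.23, adjusted p = 0.00103), HLA-DPA1 (-0.87 ± 0.22, adjusted p = 0.00361), HLA-DMA (-0.71 ± 0.23, adjusted p = 0.0149) and CIITA (-0.71 ± 0.28, adjusted p = 0.0399). The members had a median log2 fold change of -0.61 and all genes tested one of -0.04. CD74 differed by -0.06 ± 0.21. Only HLA-DQA1 passed in the 2 mice of reaction 1 alone, and 9 members, 1 higher and 8 lower, in the 3 mice of reaction 2 alone. Of all genes, 177 were higher and 239 lower of 1678 in reaction 1 alone. In reaction 2 alone 1046 were higher and 1235 lower of 5050. Of the 24 other pathway genes tested, 5 were higher and 11 lower; CD80 (-3.89 ± 0.59), CD86 (-3.34 ± 0.34) and IFI30, the thiol reductase of the endosome (-2.53 ± 0.19), were lower, and CD40 (0.93 ± 0.35) higher. Plasmacytoid dendritic cells, 60 cells in all and not tested, had CD74 at 4585 CPM (range 3257 to 5433, n = 9 mice), close to mature dendritic cells, with CIITA at 306 (0 to 452) CPM.

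**Figure D2:**
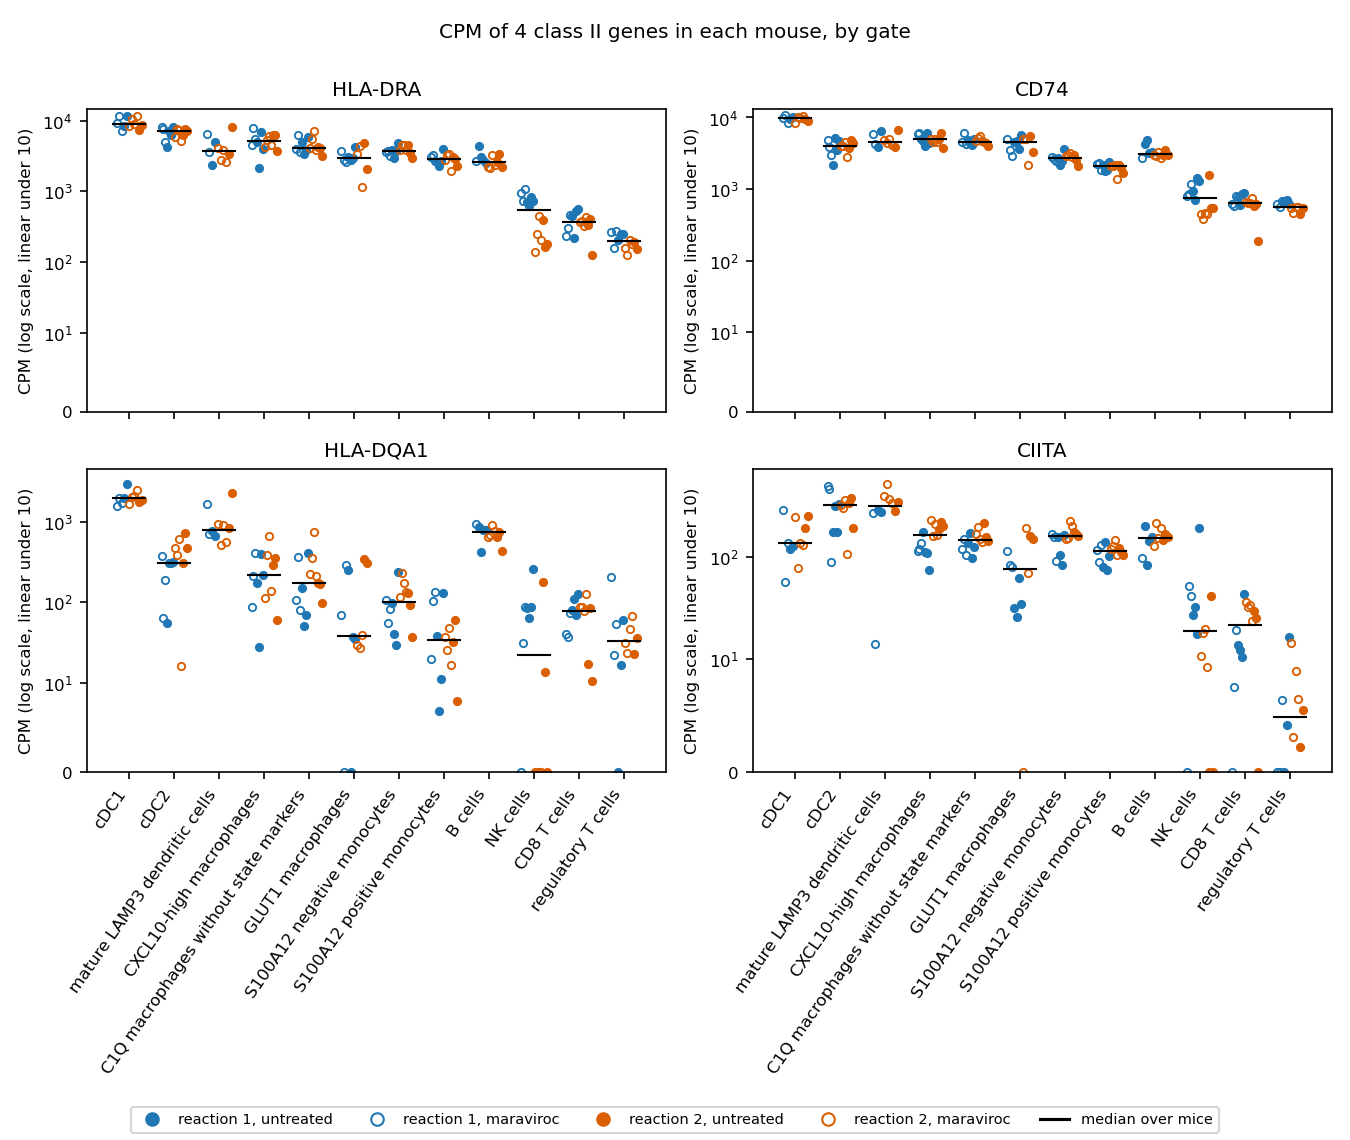
CPM (vertical, log scale that is linear under 10) of HLA-DRA, CD74, HLA-DQA1 and CIITA in each mouse, by gate; blue points are reaction 1, orange points reaction 2, filled points untreated and open points maraviroc mice, and black bars medians. HLA-DQA1 spreads wider over mice than HLA-DRA or CD74 in macrophages, monocytes and cDC2, from 16.3 to 715 CPM in cDC2.

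HLA-DQA1 was the member with the widest spread over mice in macrophages and in monocytes. In macrophages it ran from 34.6 CPM to 584, a 16.9-fold range over 14 mice, and in monocytes over a 9.69-fold range. HLA-DQB1 spread 3.15-fold in macrophages, HLA-DRA 1.99-fold and CD74 1.52-fold. The class II chains are highly polymorphic, HLA-DQA1, HLA-DQB1 and HLA-DRB1 have near-identical paralogs (HLA-DQA2, HLA-DQB2 and HLA-DRB5), and reads were assigned to a single reference genome. The part of this assignment in the spread was not tested.

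Among monocytes, gated by VCAN, FCN1 and S100A12, the cells without an S100A12 UMI carried more of every member. HLA-DRA was at 2834 CPM (range 1950.3 to 3939, n = 14 mice) in S100A12 positive monocytes and at 3745 CPM (range 2935 to 4878, n = 14 mice) in negative ones. The ranges overlapped between mice, but within a mouse the positive cells were the lower in 14 of 14 mice. All 10 members were lower in edgeR's paired test (8.33% of 7968 genes were lower). Over the members tested the median log2 fold change was -0.47, beside -0.01 over all genes tested. The log2 fold change ran from -1.46 ± 0.24 (SE, adjusted p = 8.28e-05) for HLA-DQA1 and -0.88 ± 0.08 (SE, adjusted p = 5.47e-08) for HLA-DQB1 through -0.42 ± 0.05 (SE, adjusted p = 1.31e-06) for CD74 and -0.43 ± 0.09 (SE, adjusted p = 0.00168) for CIITA to -0.24 ± 0.08 (SE, adjusted p = 0.0312) for HLA-DMB. In reaction 1 alone 7 members passed, beside 188 lower of 6300 genes, and in reaction 2 alone all 10, beside 412 of 8627. Of the 33 other pathway genes tested, 6 were higher and 9 lower in S100A12 positive cells, beside 708 higher and 664 lower of the 7968 genes. CD80 (-1.13 ± 0.09), LGMN (-0.55 ± 0.10) and HLA-DRB5 (-0.50 ± 0.15) fell most, and IFNGR2 (0.31 ± 0.06), a chain of the interferon-gamma receptor, rose most. Median depth was 6552 UMIs per positive cell against 4883 per negative cell in reaction 1, and 11448 against 11560.0 in reaction 2.

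C1Q macrophages without state markers were higher than monocytes in 9 members, with CIITA the exception (28.0% of 9655 genes were higher; 14 mice). The members had a median log2 fold change of 0.43 and all genes tested one of 0.00. CD74 was at 4615 CPM (range 3947 to 6024, n = 14 mice) in these macrophages and at 2554 CPM (range 1909 to 3273, n = 14 mice) in monocytes, with no overlap and a log2 fold change of 0.95 ± 0.05 (SE, adjusted p = 1.46e-13). HLA-DQA1 rose by 1.31 ± 0.17 (SE, adjusted p = 4.83e-07), HLA-DQB1 by 0.78 ± 0.09 (SE, adjusted p = 2.07e-07) and HLA-DMB by 0.61 ± 0.07 (SE, adjusted p = 5.71e-08). HLA-DRA rose by less, 0.37 ± 0.06 (SE, adjusted p = 9.83e-06), in 14 of 14 mice. CIITA was at 147 (97.9 to 216) CPM in macrophages and 141 (78.9 to 186) in monocytes and did not pass (0.10 ± 0.07, adjusted p = 0.261). Of the 38 other pathway genes tested, 16 were higher and 13 lower, beside 2699 higher and 2751 lower of the 9655 genes tested in all. LAG3, a ligand of class II (2.90 ± 0.27), LGMN (2.47 ± 0.10) and HLA-DQB2 (1.56 ± 0.23) rose most, and HLA-DOA, a subunit of the HLA-DM modulator HLA-DO, rose by 1.24 ± 0.12. BCL6 (-1.28 ± 0.07), CD44 (-1.16 ± 0.08) and IFI30 (-0.76 ± 0.06) fell most, and 4 of the 6 genes tested in interferon-gamma signalling were lower, IRF1 among them (-0.55 ± 0.09).

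The macrophage states were compared with these C1Q macrophages. The state gates required myeloid markers and the marker of the state, but not the 3 C1Q UMIs of the comparison gate. Each of these comparisons thus also sets cells not selected for C1Q against cells selected for it, and the part of that was not tested. CXCL10-high macrophages, gated by a chemokine that interferon-gamma induces, had a fitted level above C1Q macrophages in all 10 members, and a median of 5161 CPM (range 2148 to 7902, n = 14 mice) for HLA-DRA, but none passed in edgeR's test over 13 mice (17.5% of 5859 genes passed). The log2 fold change lay between 0.12 ± 0.07 for CD74 and 0.27 ± 0.24 for HLA-DQA1, with the lowest adjusted p at 0.0695 for HLA-DRB1, and 5 of the 10 members had an unadjusted p under 0.05. Over the members tested the median log2 fold change was 0.21, beside 0.01 over all genes tested. The other members were higher in 9 to 11 of 13 mice, but HLA-DQA1 and HLA-DQB1 were each higher in 6 and lower in 7. In reaction 2 the median log2 difference was -0.29 for HLA-DQA1 and -0.06 for HLA-DQB1. DESeq2 called 1 member higher, beside 573 of 5859 genes, and the stricter marker limits called 5 higher, beside 522 of 6225. Those limits were raised for CXCL10, for C1Q and for the other markers together, so the part of CXCL10 was not set apart. Genes of the interferon-gamma route did pass: the transcription factor IRF1 rose by 1.28 ± 0.13 and the kinase JAK2 by 1.12 ± 0.10, while IFNGR1, a chain of the receptor, fell, at -0.30 ± 0.10. CD40 rose by 1.21 ± 0.15, and 4 of 9 processing genes rose, CTSS (0.33 ± 0.07) and CTSH (0.47 ± 0.09) among them. In all, 8 of 31 other pathway genes were higher and 5 lower, beside 557 higher and 467 lower of the 5859 genes tested.

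GLUT1 macrophages, gated by SLC2A1, had a fitted level below C1Q macrophages in all 10 members, of which HLA-DRA, HLA-DRB1 and HLA-DPB1 passed. The median log2 fold change of the members was -0.50, and 8 of 10 had an unadjusted p under 0.05 in edgeR's test. HLA-DRA was at 3006 CPM (range 1159 to 4871, n = 12 mice) against 4078 (3134 to 7177) in C1Q macrophages, and the ranges overlapped. The log2 fold change was -0.59 ± 0.17 (SE, adjusted p = 0.017) for HLA-DRB1, -0.53 ± 0.17 (SE, adjusted p = 0.0259) for HLA-DPB1 and -0.47 ± 0.16 (SE, adjusted p = 0.0447) for HLA-DRA, 3 members lower where 8.15% of 7058 genes were lower and the median of all genes was -0.14. HLA-DPB1 was lower in 12 of 12 mice. CD74 had a median of 4609 CPM and did not pass (-0.15 ± 0.15, adjusted p = 0.574), and its ratio to HLA-DRA had the highest median of the macrophage gates, 1.35 (range 1.12 to 1.89), against 1.09 (range 0.768 to 1.31) in C1Q macrophages. CIITA was at 75.0 (0 to 189) CPM and missed the threshold (-0.74 ± 0.27, adjusted p = 0.0662). No member passed within either reaction alone, where 4 of 10 had an unadjusted p under 0.05 in each, and the test rested on 85 cells in 12 mice with at least 3 cells each. CXCR4 (2.22 ± 0.24), MARCH8 (1.43 ± 0.38), MIF (1.05 ± 0.17) and CTSD (0.71 ± 0.18) were the 4 other pathway genes that rose of 33, and JAK2 (-1.11 ± 0.26) and CD86 (-0.83 ± 0.19) were among the 6 that fell. Among all 7058 genes tested, 371 rose and 575 fell.

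In the 4 mice with at least 10 MT1G-high macrophages, HLA-DRA was at 2557, 4288, 5386 and 4510.4 CPM and at 3539, 4939, 5916 and 4212 in C1Q macrophages of the same mice, lower in the 3 mice of reaction 1 and higher in the 1 mouse of reaction 2. No member passed (0.412% of 7766 genes passed, 32 genes in edgeR and 45 in DESeq2), and 2 of the 10 members had an unadjusted p under 0.05. Each of the 10 was fitted below C1Q macrophages in edgeR, with a median log2 fold change of -0.31 beside 0.01 over all genes tested. With stricter markers 3 of 10 were above 0, with a median of -0.13. With a minimum of 3 cells, an alternative added after the data were seen, 13 mice entered, 97 genes and 0 members passed, and 5 of the 10 members had an unadjusted p under 0.05. LYVE1 macrophages, not tested, had a median HLA-DQA1 of 23.3 CPM (0 to 123) with HLA-DRA at 3653 (1078 to 5503). Cycling macrophages had HLA-DRA at 3343 (2548 to 4230.2) CPM, and inflammatory macrophages, 73 cells gated by IL1A and CCL20, at 2985 (916 to 6642).

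**Figure D3:**
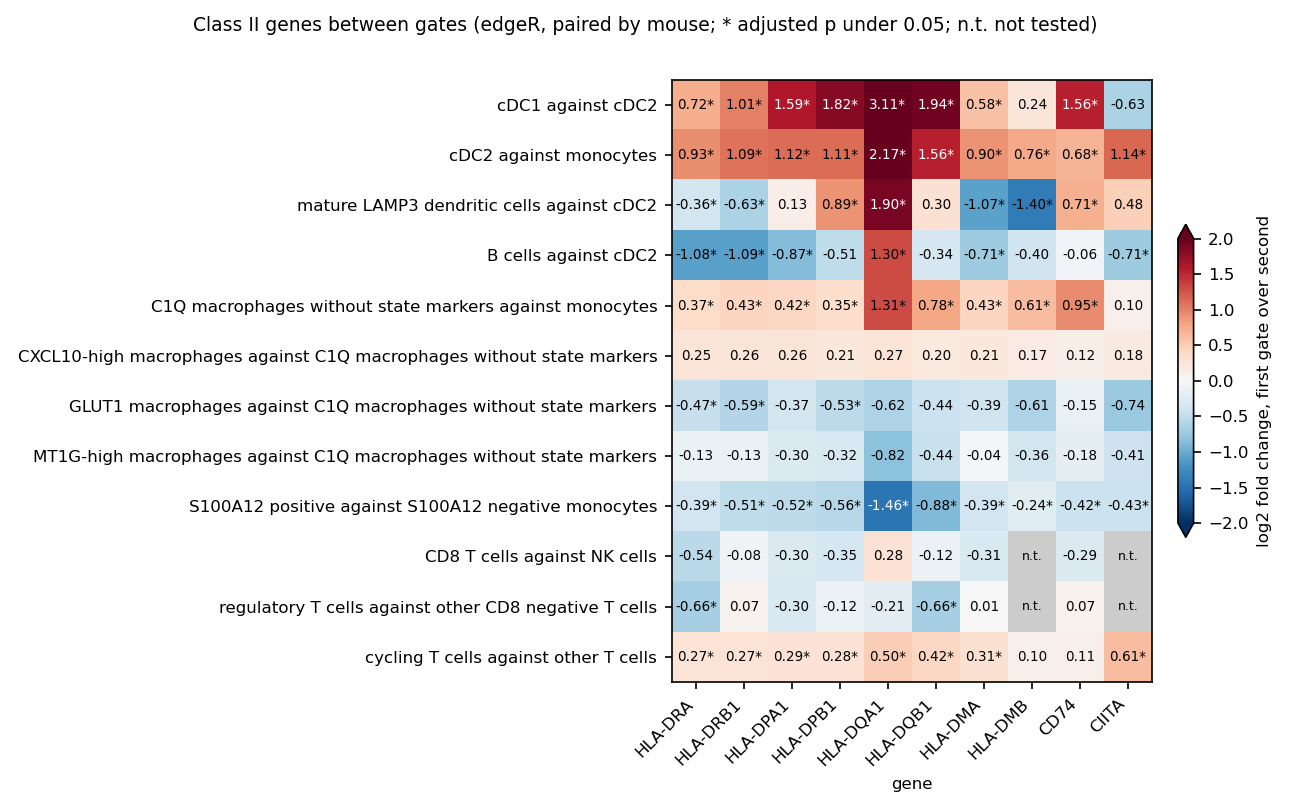
log2 fold change of the 10 class II genes (columns) in 12 comparisons between gates (rows), red higher and blue lower in the gate named first, with an asterisk at an adjusted p under 0.05 (edgeR) and n.t. where the gene did not pass the filter on low counts. All 10 genes carry an asterisk in cDC2 against monocytes and in S100A12 positive against negative monocytes.

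CIITA, the switch of the family, was detected in few cells at an equal depth. After each cell was thinned to 1500 UMIs, CIITA had a UMI in 28.8% of 198 cDC2 of reaction 2 (95% exact interval 22.6% to 35.6%), in 17.7% of 1747 macrophages (16.0% to 19.6%) and in 2.54% of 2083 T cells (1.91% to 3.32%). Unthinned, the shares were 91.9%, 64.1% and 10.8%. Mast cells, taken here as a gate with little class II, had CIITA in 0 of 44 thinned cells in reaction 2 (interval 0% to 8.04%), but in 11.4% of 44 in reaction 1 (3.79% to 24.6%). The share in T cells of reaction 1 was 1.91%. Within each reaction the T cell share was thus below or inside the interval of the mast cells, so by itself it does not set CIITA in T cells apart from mast cells. The gates were not alike, since mast cells were allowed 1 UMI of the myeloid markers and T cells 0. The intervals cover counting error only.

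Within monocytes, cells with a CIITA UMI carried more class II than cells without one, whereas within macrophages no member passed at an equal depth. In monocytes HLA-DRA averaged 4223 CPM in 394 CIITA-detected cells and 3148 in 1992 undetected cells, a log2 difference of 0.42 ± 0.17 (SD over 14 mice, higher in 14, adjusted p = 0.0011) by the exact two-sided permutation of signs over mice. The unadjusted p of 1.22e-04 is the smallest that 14 mice can give. The difference was 0.38 ± 0.16 (SD over 14 mice, higher in 14, adjusted p = 0.0011) for HLA-DRB1, 0.42 ± 0.30 (SD over 14 mice, higher in 12, adjusted p = 0.0033) for HLA-DPB1 and 0.28 ± 0.19 (SD over 14 mice, higher in 13, adjusted p = 0.00293) for CD74 in the same exact test. HLA-DPA1 and HLA-DMA also passed, and HLA-DQA1, HLA-DQB1 and HLA-DMB did not, which made 6 of 9 members. Only the members were tested in this split, so no share of all genes stands beside that count. In macrophages none of 9 passed: HLA-DRA averaged 4305 CPM in 662 detected and 4055 in 3497 undetected cells, a difference of 0.08 ± 0.26 (SD over 14 mice, higher in 8, adjusted p = 0.407) in the exact test, and no unadjusted p was under 0.05. Whether the difference itself differs between monocytes and macrophages was not tested. Without thinning, where deeper cells are more often CIITA-detected, all 9 members were higher in detected macrophages too.

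Outside the phagocytes, the members were read against 6 genes of macrophages (C1QB, C1QC, APOC1, APOE, SPP1 and LYZ) that T cells should lack, since RNA free in the droplets gives every cell a low level of what other cells express. In CD8 T cells of reaction 2, the 10 members had a median of 16.3% of their macrophage level (range 9.23% to 31.6%), and the 6 reference genes a median of 1.09% (0.834% to 2.82%), so the lowest member was above the highest reference gene. The same held in reaction 1, with 17.9% and 1.56%. The members were also expressed by dendritic cells, monocytes and B cells, so the macrophage level alone may understate their free RNA. HLA-DQA1, for example, was at 196 CPM in macrophages of reaction 2 and at 2031 in its cDC1. T cells were also gated to 0 UMIs of CD14, CD68, CSF1R and MS4A7, which may lower the reference genes. The part of both was not tested. Regulatory T cells had 10.9% and 1.61% in reaction 2, where the 2 ranges overlapped. Mast cells of reaction 2, taken as a gate with little class II, had 1.45% for the members (0% to 5.86%) and 2.93% for the reference genes (0% to 170.4%), and HLA-DRA at 28.5 CPM (95% exact interval 11.4 to 58.7). The highest of these reference genes was APOC1, which had 26.3 CPM in the macrophages of that reaction and a higher level in the mast cells, so the set is not a clean measure of free RNA there. Carcinoma cells had 0.897% for the members and 1.17% for the reference genes in reaction 1, and 2.84% (up to 16.1%) and 0.911% (up to 83.8%) in reaction 2.

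The reference genes stood higher in mast and NK cells of reaction 1. Its mast cells, with a median of 1512 UMIs, had 26.2% for the members and 18.9% for the reference genes, and its NK cells 27.2% and 9.13%, against 10.1% and 0.937% in reaction 2. APOC1 in these mast cells was at 227% and APOE at 111%. The part of free RNA in the class II level of these cells was not tested. B cells (93.7% against 0.957%) and plasmacytoid dendritic cells (122% against 1.61%) of reaction 2 had members far above the reference genes.

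**Figure D4:**
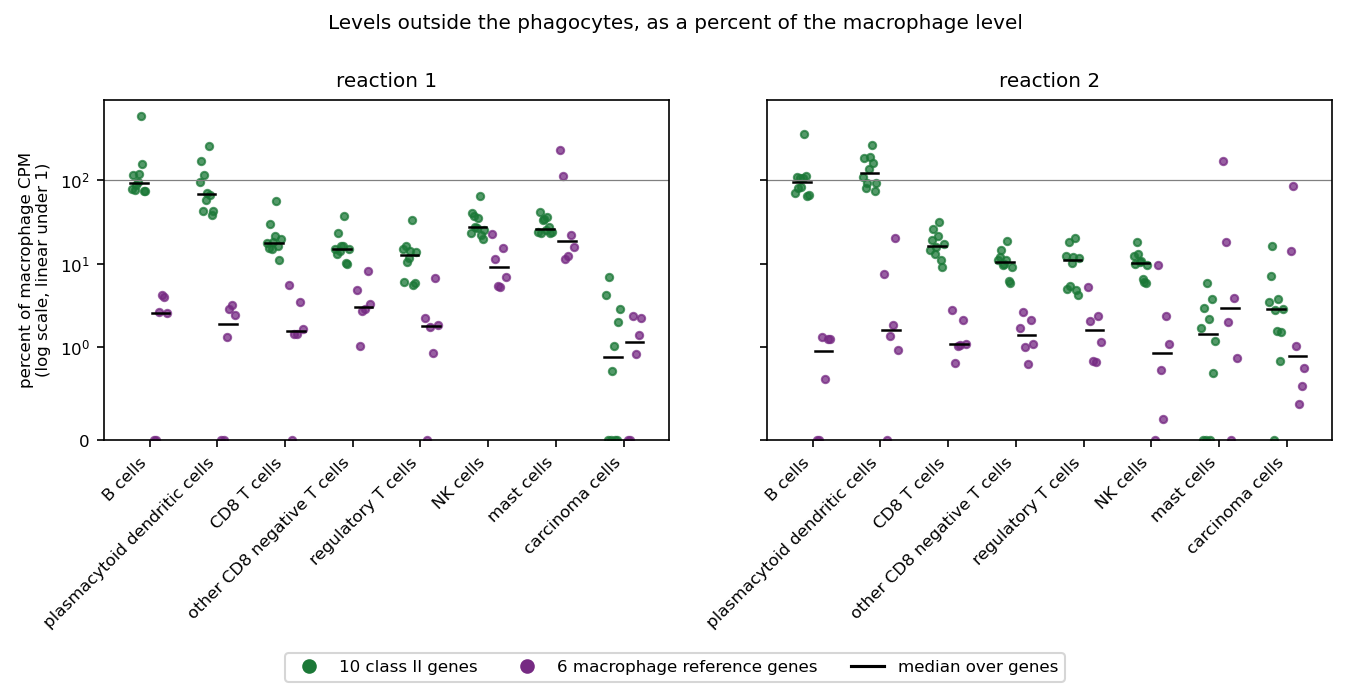
Level in each gate as a percent of the macrophage level of the same reaction (vertical, log scale that is linear under 1), for the 10 class II genes (green) and 6 macrophage genes (purple), with the median over genes as a bar; the grey line marks the macrophage level. In reaction 2 the class II genes of CD8 T cells sit at a median of 16.3% and the macrophage genes at 1.09%.

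T cells differed from macrophages and monocytes in the ratios between members. The ratio of HLA-DRB1 to HLA-DRA UMIs was 1.59 (range 1.25 to 1.76) in T cells and 0.877 (range 0.794 to 0.941) in macrophages, over 14 mice in each gate, with no overlap. It was above 1 in 14 of 14 mice in CD8 T cells, in 12 of 12 in regulatory T cells and in 0 of 14 in macrophages or monocytes. In regulatory T cells it was 2.20 (range 1.37 to 2.82). It was above 1 also in 10 of 11 mice in cDC1, with 1.15 (range 0.961 to 1.33), and in 8 of 14 in NK cells. The same held in 3 of 5 mice in carcinoma cells, with 1.2 (range 0 to 8), and in 3 of 9 in mast cells. The ratio of CD74 to HLA-DRA was 2.02 (range 1.61 to 2.55) in T cells and 1.09 (range 0.871 to 1.37) in macrophages, again without overlap, and the median ratio of plasmacytoid dendritic cells was also above that of macrophages. So were the medians of NK cells, 1.59, mast cells, 1.33, and carcinoma cells, 3.25 (range 1 to 8). Carcinoma and mast cells had few UMIs of these genes, and the part of free RNA in the T cell ratios was not tested. These ratios compare gates and do not say which transcript was the more abundant, and the mark of 1 only serves to count mice. The lowest T cell levels of HLA-DRA, 112 CPM, and CD74, 286, came from the same mouse, untreated mouse 3 of reaction 2, which had 58 T cells.

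CD8 T cells could not be ordered against NK cells. HLA-DRA in CD8 T cells had a median of 449.8 CPM (range 219 to 570.1, n = 7 mice) in reaction 1 and 367 (127 to 442) in reaction 2, and in NK cells of 740.0 (630.4 to 1064) and 204 (140.0 to 450.4). By these medians NK cells were the higher in reaction 1 and the lower in reaction 2. In the pooled test of 8 mice none of the 8 members that passed the filter was called (3.82% of 3403 genes were called; 1 member had an unadjusted p under 0.05, and DESeq2 called 0), and the log2 fold change of HLA-DRA was -0.54 ± 0.25. Within the 6 mice of reaction 1 it was -0.96 ± 0.16 and 3 members were lower, and within the 2 mice of reaction 2 it was 1.17 ± 0.35 and 4 members were higher. The pooled value therefore describes neither reaction. No share of all genes stands beside the counts of members within each reaction. LAG3 was the 1 of 17 other pathway genes that passed, at 1.86 ± 0.31.

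Regulatory T cells, gated by FOXP3, had less HLA-DRA and HLA-DQB1 than the other CD8 negative T cells. HLA-DRA was at 198 CPM (range 128 to 272, n = 12 mice) and at 282 (109.6 to 584), and within mice it was lower in 11 of 11 mice. It fell by 0.66 ± 0.09 (SE, adjusted p = 2.81e-06) and HLA-DQB1 by 0.66 ± 0.21 (SE, adjusted p = 0.0206) on the log2 scale, 2 of 8 members tested, where 15.8% of 7358 genes were lower. HLA-DRB1 had a log2 fold change of 0.07 ± 0.11, adjusted p = 0.676, and CD74 of 0.07 ± 0.08, adjusted p = 0.524, and neither passed. HLA-DRB1, CD74 and HLA-DMA were each higher in 1 of 5 mice of reaction 1 and in 5 of 6 of reaction 2. The median log2 difference was -0.25 and 0.47 in these reactions for HLA-DRB1, and -0.15 and 0.18 for CD74. Whether the reactions differ was not tested. The fall of HLA-DRA was -0.98 ± 0.15 in reaction 1 and -0.48 ± 0.08 in reaction 2. In reaction 1 the macrophage reference genes had a median of 1.81% of their macrophage level in regulatory T cells and 3.07% in the others. In reaction 2 these medians were 1.61% and 1.395%. HLA-DRA in regulatory T cells, at 5.94% and 4.28% in the 2 reactions, lay below the highest reference gene, at 6.71% and 5.25%. In the others HLA-DRA, at 9.87% and 5.92%, lay above it, at 8.23% and 2.68%. The part of free RNA in the fall was not tested. CIITA and HLA-DMB did not pass the filter on low counts; CIITA had a median of 4.84 CPM in regulatory T cells (0 to 16.5). Of 31 other pathway genes, 9 were higher and 6 lower, led by PRDM1, a repressor of CIITA (1.71 ± 0.12), CD80 (1.50 ± 0.22) and CD4 (1.15 ± 0.19) among the higher and by IFNG (-4.18 ± 0.31), CD83 (-1.96 ± 0.16) and CXCR4 (-1.58 ± 0.11) among the lower. The 9 were not set beside the share of all genes that were higher.

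Cycling T cells, with MKI67 or TOP2A counts, were higher than the other T cells in 8 of the 10 members (21.4% of 8027 genes were higher; 14 mice). The cycling cells were deeper, with a median of 7027 UMIs against 4223 in reaction 1 and 10061 against 6070 in reaction 2. Both sides pooled CD8, regulatory and other T cells, and their mix was not matched. The part of depth and mix was not tested. The log2 fold change was largest for CIITA, at 0.61 ± 0.19 (SE, adjusted p = 0.0103), and HLA-DQA1, at 0.50 ± 0.14 (SE, adjusted p = 0.00394), and was 0.27 ± 0.08 (SE, adjusted p = 0.00725) for HLA-DRA and 0.27 ± 0.07 (SE, adjusted p = 0.00168) for HLA-DRB1. HLA-DRA was at 324 CPM (range 118 to 587, n = 14 mice) and at 260.4 (91.7 to 452) in the rest, overlapping ranges, and within mice the cycling cells were the higher in 10 of 14 mice. CIITA was at 19.2 (3.56 to 33.4) CPM in cycling and 13.8 (0 to 24.7) in other T cells, low levels against the 139.6 of macrophages. CD74 (0.11 ± 0.06, adjusted p = 0.165) and HLA-DMB (0.10 ± 0.18, adjusted p = 0.691) did not pass. The calls rest on pairing within mice: with the reaction as a term in place of the mouse, 0 members passed in edgeR (1 at an unadjusted p under 0.05), DESeq2 with the mouse called 5, and 1 passed in reaction 1 alone and 5 in reaction 2 alone. The share of all genes in these other fits does not stand beside their counts. Of 31 other pathway genes, 4 were higher, IFNG at 0.71 ± 0.10 and NFYB at 0.69 ± 0.11 first, and 17 were lower, among them all 5 processing genes that passed. The 17 were not set beside the share of all genes that were lower, so that count does not set the pathway apart from other genes.

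Maraviroc was compared with untreated mice in 7 gates, with the reaction as a term, and no member passed in any of them. HLA-DRA in macrophages was at 3912 CPM (range 2908 to 5257, n = 7 mice) in untreated mice and at 3909 CPM (range 3411 to 5785, n = 7 mice) in maraviroc mice, overlapping ranges with nearly the same median. CD74 in macrophages was at 4319.9 (3702 to 4782) and 4545 (4041 to 5637) CPM, and HLA-DQA1 at 145 (34.6 to 280.4) and 204 (82.7 to 584). The share of genes called was 0% in each gate in edgeR with the filter on low counts. In macrophages 430 of 11181 genes had an unadjusted p under 0.05 and no member did; the counts were 351 of 9606 genes in monocytes, 263 of 6060 in cDC2, 39 of 1492 in cDC1, 80 of 2128 in B cells, 382 of 10126 in T cells and 66 of 1926 in NK cells, with 0 members among them. DESeq2 called 1 gene in T cells and 1 in NK cells, neither a member, and 0 in the other gates. With every gene counted, edgeR called 9 genes in macrophages, 46 in monocytes, 39 in cDC2, 11 in cDC1, 19 in B cells, 7 in T cells and 5 in NK cells, and in reaction 1 alone 3 in monocytes, with no member among them.

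The sizes behind these tests were small for most members. In macrophages the log2 fold change was 0.17 ± 0.16 for HLA-DRA, 0.13 ± 0.08 for CD74, -0.06 ± 0.12 for CIITA and 0.75 ± 0.42 for HLA-DQA1 (SE, adjusted p = 1 for each), with 9 of 10 members above 0 and a median of 0.17 beside 0.00 over all genes. The members' median was 0.01 in reaction 1 alone and 0.33 in reaction 2 alone. HLA-DQA1 stood at 0.23 ± 0.57 and 1.23 ± 0.37 in these, with an adjusted p of 0.949 in reaction 2, and whether the reactions differ was not tested. In monocytes HLA-DRA was at 3265 (2679 to 4622) CPM in untreated and 3521 (2815 to 3964) in maraviroc mice, and its log2 fold change was 0.01 ± 0.12. In cDC2 it was 0.07 ± 0.17, in cDC1 0.11 ± 0.18, in B cells -0.26 ± 0.23, in T cells 0.10 ± 0.20 and in NK cells, where 5 members passed the filter, 0.30 ± 0.26. Without the reaction term all 5 members in NK cells were below 0, with a median of -0.45 against 0.30 with it, and none passed. Reaction 1 held 4 untreated and 2 maraviroc mice of this NK comparison, and the 2 mice of reaction 2 were both maraviroc. With the term the treatments were thus compared within reaction 1 only. Without it, treatment and reaction cannot be told apart. For cDC1, mice with at least 3 cells were used. In T cells HLA-DQA1 had 0.54 ± 0.28. A missed threshold does not show that the groups were alike; in macrophages the SE of HLA-DQA1 was 0.42, wider than that of HLA-DRA.

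None of the other pathway genes passed for maraviroc either, of 39 tested in macrophages, 36 in monocytes and in T cells, 32 in cDC2 and 13 to 20 in the smaller gates. On simulated counts of the macrophage comparison, edgeR recovered 86.5% of 200 genes changed by 1 on the log2 scale, with 5 false calls among 11030 genes. Changes smaller than those simulated were not covered by that check.

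**Figure D5:**
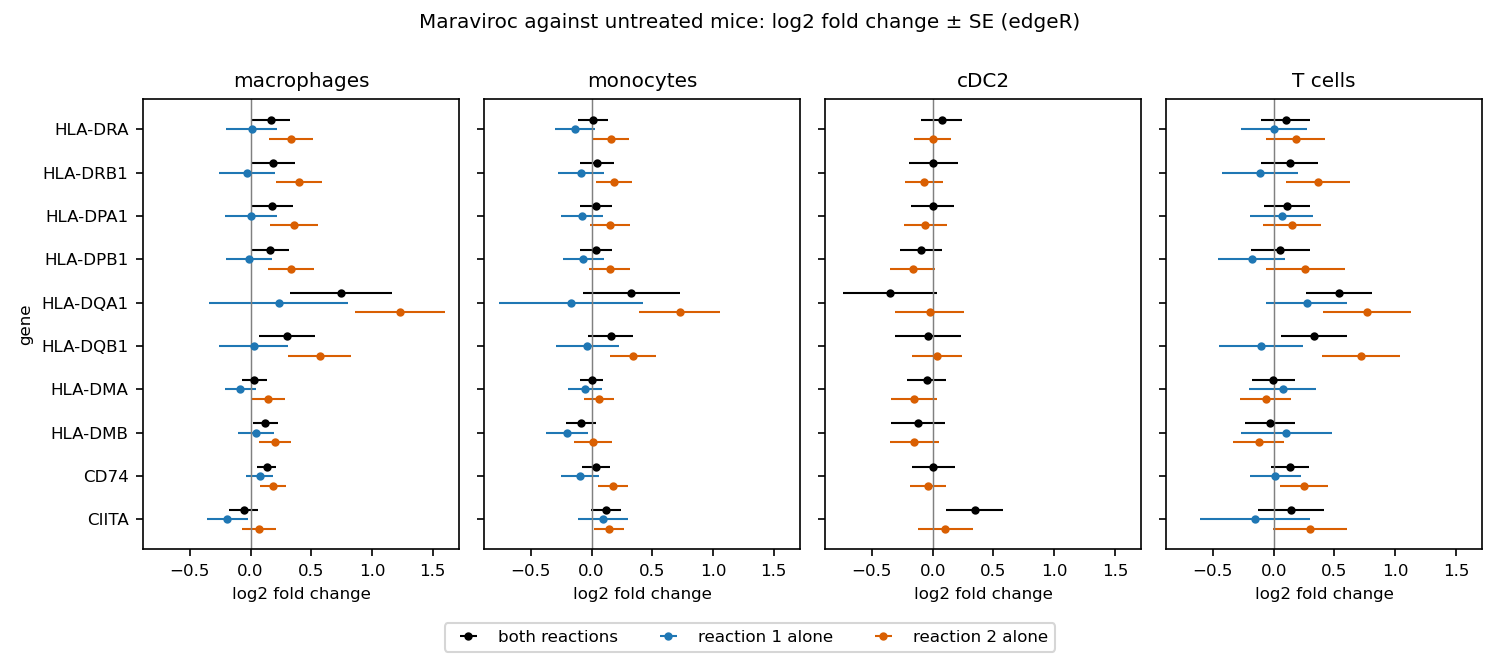
log2 fold change ± SE (horizontal) of each class II gene, maraviroc over untreated mice, in 4 gates, for both reactions (black), reaction 1 alone (blue) and reaction 2 alone (orange); cDC2 of reaction 1 alone could not be fitted. The black points lie between -0.35 and 0.75, both HLA-DQA1, and none passed.

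The genes whose pattern over gates was most like the mean of the members were found over 40 points, 21 gates in 1 or both reactions with at least 20 cells, among 14174 genes that reached 10 CPM in a gate. CD40, the costimulatory receptor, was first with Pearson's r = 0.921, followed by HLA-DOA (0.911), FGD2 (0.909), HLA-DRB5 (0.908) and the cathepsin CTSH (0.877). PLEKHO1, YBX3, SNX8, MEF2C and TBC1D9 completed the first 10, down to 0.860. Of the members themselves, HLA-DRB1 was closest to the mean at 0.986, CIITA stood at 0.951 and HLA-DQA1 was the most distant at 0.859. The points share libraries, and the values are a description.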

How the data were processed

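The authors aligned the reads of the 2 pooled reactions with Cell Ranger 9.0.1, per the submitters' processing notes, which also name Seurat 5.1.0 and the build GRCh38, and deposited raw UMI counts per gene and hashtag for each barcode (unit: counts), with 133089612 gene UMIs in reaction 1 and 175447534 in reaction 2. Multi-gene reads and alleles were handled by that pipeline against 1 reference. From these counts, barcodes with 601 to 6000 genes and under 12.5% mitochondrial UMIs were kept. Mice were assigned with HTODemux (Seurat 5.3.0, quantile 0.99), which removed doublets of different mice; doublets of 1 mouse were removed only where they failed the gates. A mouse held 5996882 to 14782548 gene UMIs.

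Most gates required at least 2 UMIs of a marker list (3 for NK cells, monocyte and C1Q markers, 10 for carcinoma cells). Most excluded cells with markers of another lineage, and macrophage states were cut on UMIs per 10000. The cDC1, cDC2 and mature dendritic gates allowed 1 UMI each of the T and B cell markers. They set no limit on monocyte or general myeloid markers, and of these gates only cDC2 had to hold under 3 C1Q UMIs. Dendritic gates were applied before the monocyte gates. Within the gates, 1 UMI sufficed for CD8A or CD8B, for FOXP3, for S100A12 and, in T cells, for MKI67 or TOP2A. Mature dendritic cells needed 1 UMI each of LAMP3 and CCR7. UMIs were summed per mouse and gate and fitted with edgeR 4.0.16 (quasi-likelihood, TMM, filterByExpr, R 4.3.3) with the reaction as a term for maraviroc and the mouse as a block between gates, with at least 10 cells per mouse and gate (3 in 4 comparisons). Adjusted p-values follow Benjamini-Hochberg over all genes tested. The SE printed with an edgeR log2 fold change was its absolute value divided by the square root of the quasi-likelihood F statistic. DESeq2 1.42.0, other filters, stricter marker limits, hashtag quantile 0.95, each reaction alone and leaving out each mouse were alternatives. On simulated counts of the CXCL10-high comparison, edgeR recovered 91% of 200 genes changed by 1 on the log2 scale, with 10 false calls among 5637 genes. The CIITA split used an exact permutation of signs over mice on cells thinned to 1500 UMIs. Named were the members, up to 3 called genes of a 42-gene pathway list in each direction and the 10 most alike genes. The members and lists were chosen with earlier results of these data known. Single values of 1 listed pathway gene are not reported here. No sequences are shown, since no human reference sequence was used here.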

Additional observations from a re-analysis of the deposited data

Results flagged for a closer look

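HLA-DQA1 in monocytes was at 210.7 CPM in untreated mouse 4 of reaction 1, far from the other untreated mice, of which the nearest was at 83.3. HLA-DRA in T cells was at 469 CPM in maraviroc mouse 3 of reaction 1, and the nearest other maraviroc mouse was at 316. These were the 2 groups with an outlying mouse among 80 screened, where chance gives about 1 in 20.

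CD8 T cells and NK cells were ordered oppositely in the 2 reactions for 3 members, with every mouse of a reaction on the same side. The median log2 difference, CD8 T cells over NK cells, was -1.01 in the 6 mice of reaction 1 and 1.19 in the 2 mice of reaction 2 for HLA-DRA. It was -0.80 and 1.41 for HLA-DPB1, and -0.63 and 0.60 for CD74. The difference between the reactions was not tested. Macrophage genes that NK cells should lack stood at a median of 9.13% of their macrophage level in NK cells of reaction 1 and at 0.937% in those of reaction 2, and their part in the opposite orders was not tested.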

How the results depend on the processing

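No member passed for maraviroc under any alternative run in the 7 gates, nor when any of the 14 mice was left out in macrophages or monocytes. Several small log2 fold changes changed sign without passing: CIITA in macrophages (0.00395 without the reaction term, 0.0699 in reaction 2 alone, -0.117 to 0.0117 leaving out a mouse), CD74 in monocytes (-0.0953 in reaction 1 alone, -0.00875 at hashtag quantile 0.95, -0.0298 to 0.132 leaving out a mouse), HLA-DRA in monocytes (-0.134 in reaction 1 alone, -0.00299 with every gene counted, -0.00905 with stricter markers, -0.0101 at quantile 0.95, -0.0648 to 0.109 leaving out a mouse), HLA-DQA1 in monocytes (-0.171 in reaction 1 alone), CD74 in cDC2 (-0.0399 in reaction 2 alone, -0.0749 at quantile 0.95), HLA-DRA in cDC2 (-0.00116 in reaction 2 alone), HLA-DQA1 in cDC2 (0.103 without the reaction term, 0.177 with stricter markers), HLA-DRA in T cells (-0.0157 without the reaction term) and CIITA in T cells (-0.154 in reaction 1 alone). In NK cells the median of 5 members was -0.45 without the reaction term against 0.30 with it. No untreated mouse of reaction 2 entered that comparison, so without the term treatment and reaction cannot be told apart.

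Between gates, CD8 T cells against NK cells had members called in opposite directions, 3 lower in reaction 1 alone and 4 higher in reaction 2 alone. In cDC1 against cDC2, DESeq2, stricter markers and every gene counted each called 1 member lower, beside 8, 8 and 7 higher. The following counts of called members moved as well. With every gene of at least 1 count, 10 members were called in B cells against cDC2, 10 in GLUT1 and 1 in MT1G-high macrophages, and 5 in regulatory T cells, settings that moved the median of all genes to -0.45, -0.53, -0.35 and -0.14. With stricter markers the counts were 5 in CXCL10-high and 6 in GLUT1 macrophages (median of all genes -0.52) and 1 in regulatory T cells. Reaction 1 alone gave 4 in mature dendritic cells, 1 in B cells, 0 in GLUT1 macrophages and 1 in cycling T cells; reaction 2 alone gave 0 and 5 in the last 2. Cycling T cells had 0 without the mouse block, 5 with DESeq2 and 4 at quantile 0.95; CXCL10-high macrophages had 1 with DESeq2 and 2 at quantile 0.95. In the CIITA split of macrophages, 9 members passed without thinning, and HLA-DRB1 (0.245), HLA-DMA (0.133) and HLA-DMB (0.315) turned from lower to higher in detected cells. Apart from the construction of each setting, the cause was not tested. The counts of members in this paragraph stand without the share of all genes in the same fit, so they do not set the members apart from other genes. With too few mice left, no fit was possible for MT1G-high macrophages in reaction 2 alone, for B cells against cDC2 with stricter markers, and for maraviroc in B cells in either reaction alone or with stricter markers, in NK cells in reaction 2 alone and in cDC2 in reaction 1 alone. Shallow cells of reaction 1 and gates under 100 cells limit the precision.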
